A study of Mus musculus with 12 samples.

Results

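Trimethylation of histone H3 at lysine 4 (H3K4me3) was compared between wild-type (WT) mouse embryonic stem cells and cells whose ALKBH5 protein lacked its C-terminal intrinsically disordered region (Alkbh5 del-cIDR). The 4 H3K4me3 libraries, 2 per genotype, were taken from the 12 libraries of the series, which also hold 4 for acetylation at lysine 27 (H3K27ac) and 4 for trimethylation at lysine 9 (H3K9me3). All cells were of the male line E14TG2a, grown in serum medium to which LIF, the MEK inhibitor PD0325901 and the GSK3 inhibitor CHIR99021 were added, and H3K4me3 was profiled by CUT&Tag, in which a transposase tethered to an antibody tags nearby DNA. The labels do not say whether replicates came from separate cultures, or whether the del-cIDR line is a single clone, so tests here measure the spread of the libraries alone, and it may be technical. Overlapping peaks (1 bp or more) on chromosomes 1 to 19 were joined, which gave 22831 regions from 18367 and 18794 del-cIDR peaks and 19055 and 19242 WT peaks.

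H3K4me3 is deposited by the SET1 and MLL methyltransferase complexes, marks the start sites of active and poised genes, and is read by proteins with PHD fingers such as the TFIID subunit TAF3. Broad H3K4me3 domains are known at genes that define a cell's identity, and short weak peaks occur at enhancers and repeats. ALKBH5 removes N6-methyladenosine from RNA and does not act on histones itself, so the comparison asks whether the chromatin mark at promoters differs when the enzyme's disordered tail is missing. Regions are given by GRCm39 position, counted from 1, and were not assigned to genes. For the same reason the label of the cells was not checked against marker genes.

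A peak list records where a mark was found, and its deposited fold says how far the summit rose over a local background. For 99.97% to 100% of the peaks in each library, the deposited fold and the −log10 of its p-value were both met by 1 whole number of fragments at the summit, if fold is (fragments + 1)/(background + 1) and p is a Poisson tail. That number is used below as the height of a peak. It rests on these definitions, which the files do not state. The weakest peak of every library then had 5 fragments and the median peak 50 to 56, and the uniform background was 0.712 to 0.843 fragments per base, so the libraries were of similar depth. H3K27ac heights were solved the same way, and there the background was higher in del-cIDR (0.68 and 0.733 fragments per base) than in WT (0.536 and 0.429). At single regions H3K27ac is therefore printed as fragments read. The ratio of the genotypes over those backgrounds is added where all 4 libraries had a peak at a leading region. Across sets of regions H3K27ac heights were compared after each library was centred on its own median. Fold and height are not interchangeable. In del-cIDR replicate 1 the peak with the highest fold, 27.3, held 986 fragments over a background of 35.2, while the tallest peak held 1393 over 58.4 with a fold of 23.5.

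Most H3K4me3 was found in both genotypes. A peak lay in all 4 libraries at 15566 regions (68.2%), with a median height of 79 fragments. Peaks were present in 3 libraries at 1720 regions, in 2 at 2028 and in 1 at 3517. The covered length was 19.4 ± 0.528 Mb in del-cIDR and 19.7 ± 0.246 Mb in WT (SD, n = 2 each; exact permutation test, two-sided, p = 0.667). The peak number was 18581 ± 302 and 19149 ± 132, with both del-cIDR lists shorter than both WT lists (exact permutation test, two-sided, p = 0.33, the smallest that 2 against 2 allows).

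Tall regions were found again more often than short ones. Of regions with 5 or 6 fragments in 1 library, 27.7% to 37.1% had a peak in the other library of the same genotype and 24.8% to 37.8% in a library of the other genotype. At 10 to 14 fragments the shares were 75.4% to 82.4% and 66.7% to 77.0%. At 40 fragments or more they were 99.7% to 99.8% and 99.5% to 99.7%. Tall H3K4me3 peaks were thus almost never missing from a library, and the regions found in a single genotype were mostly short.

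**Figure D1:**
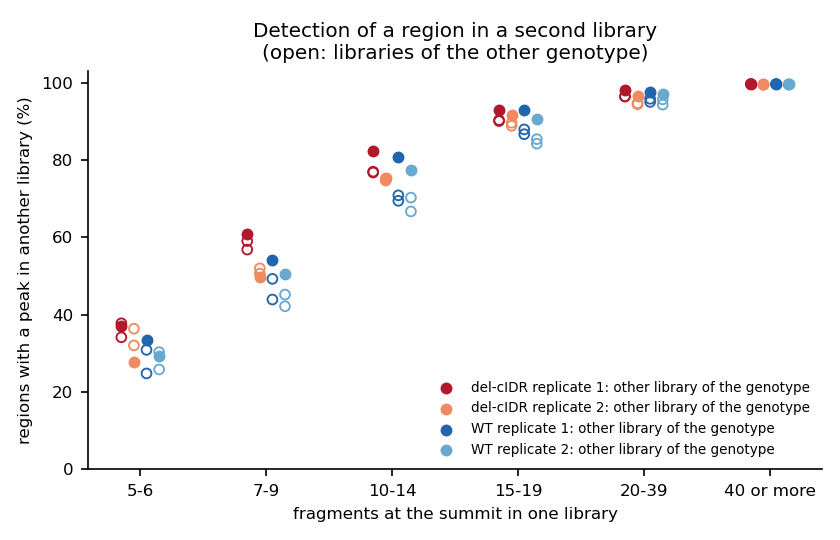
Share of regions with a peak in a second library (vertical axis, %) by fragments at the summit in the first (horizontal axis); filled points are the other library of the same genotype, open points the 2 libraries of the other genotype. Shares climb from 24.8% to 37.8% at 5 or 6 fragments to over 99% at 40 or more, whichever genotype is asked.

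Presence was compared first. A peak was found in both libraries of del-cIDR and in none of WT at 458 regions (2.01% of all), and the reverse held at 657 (2.88%). The 1115 regions together were 2.40 and 2.49 times the 465 and 448 found by the 2 splits that pair 1 library of each genotype. No test was made of these counts. The WT lists were longer, and with all lists at equal length 537 regions were found for del-cIDR and 515 for WT. In these bulk data, fewer cells with a mark and less of it per cell cannot be told apart.

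These regions were weak. The median height was 10 fragments in each direction, and 48.5% of the del-cIDR and 46.1% of the WT regions had at most 10 in both libraries. At least 20 fragments in both libraries were seen at 46 del-cIDR and 50 WT regions, against 7 to 17 for each mixed pair. Most of these taller regions stood beside larger ones: 33 of 46 and 43 of 50 lay within 5 kb of a region shared by all libraries. The tallest, chr10:21872976-21873630, had 152 and 183 fragments in del-cIDR, but its fold was 1.62 and 1.53 over a local background of 93.7 and 119 fragments, 255 bp from a shared region. Requiring a fold of 4 as well left 14 del-cIDR and 16 WT regions, against 2 to 6 for each mixed pair.

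Among those, the tallest del-cIDR region was chr17:25971316-25973566, a domain 2251 bp wide with 67 and 82 fragments and no WT peak. It lay 19.05 kb from the nearest shared region and had no H3K27ac or H3K9me3 peak in any library. At chr6:88669370-88670622 the del-cIDR libraries held 50 and 51 fragments, and the only H3K27ac peak, of 11 fragments, was in WT replicate 1. At chr14:118612729-118614432 the del-cIDR libraries held 33 and 31, and H3K27ac peaks of 18 and 14 fragments were found in del-cIDR only. The tallest WT region was chr2:22006767-22007359, with 57 and 71 fragments and a fold of 8.34 and 8.79. It had H3K27ac peaks of 15 fragments in del-cIDR replicate 2 and 17 in WT replicate 1. It was followed by chr4:147782618-147783300, with 49 and 57 fragments, where H3K27ac peaks of 18, 20 and 17 fragments were present in both del-cIDR libraries and WT replicate 1. These regions were chosen after their values were seen.

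By fold, which ranks a peak within its own list, the leading del-cIDR region was chr9:123290865-123291228, with 19 fragments in each del-cIDR library. Its H3K27ac peaks were 74 and 100 fragments in del-cIDR and 58 and 47 in WT, a ratio of 1.12 over background with overlapping genotypes. At chr4:61885707-61886567, with 15 and 16 fragments, H3K27ac was 55 and 57 in del-cIDR and 22 and 18 in WT, a ratio of 1.91 over background. The leading WT region was chr1:3124672-3125410, with 26 and 21 fragments and a fold of 14.8 and 12.4, and no H3K27ac in any library. It was followed by chr4:64786258-64786887, with 27 and 25 fragments. The 10 leading regions of each direction held 8 to 25 fragments in del-cIDR and 15 to 27 in WT.

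The other marks differed between the leading sets. Of the 10 leading WT regions, 9 overlapped an H3K9me3 peak in at least 1 del-cIDR library and 2 in a WT library. Of the 10 leading del-cIDR regions, 3 overlapped H3K9me3 in a del-cIDR library and 1 in a WT library. H3K9me3 marks silent heterochromatin and retroelements. At chr1:3124672-3125410 it was present in both del-cIDR libraries and WT replicate 1. At chr2:83259984-83261234, where the WT H3K4me3 peaks had 17 and 27 fragments, it was present in both del-cIDR libraries alone.

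Over the full sets the same overlap was smaller. H3K9me3 peaks covered part of 5.18% and 7.46% of the 657 WT regions in the del-cIDR libraries and 1.22% and 3.81% in the WT libraries. For the 458 del-cIDR regions the shares were 3.49% and 2.40%, and 1.75% and 3.28%. In regions shared by all libraries they were 0.809% and 1.13%, and 0.296% and 0.951%. The H3K9me3 lists differed in length, with 34154 and 37789 peaks in del-cIDR and 20895 and 41183 in WT, and WT replicate 1 had the lowest share in each set. The part of list length in these overlaps was not tested.

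The WT regions also lay in other places. More than 100 kb from any shared region were 141 of the 657 WT regions (21.5%) and 37 of the 458 del-cIDR regions (8.08%), against 10.4% to 14.7% in the mixed pairs. Of the 141 isolated WT regions, 17.0% and 21.3% overlapped H3K9me3 in the del-cIDR libraries and 2.13% and 11.3% in the WT libraries. Of the 516 nearer WT regions, the shares were 1.94% and 3.68%, and 0.969% and 1.74%. The isolated WT regions were as short as the rest, with a median of 9 fragments. No test was made of these shares.

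H3K27ac, a mark of active promoters and enhancers, was found more often at the del-cIDR regions in del-cIDR than in WT. Of the 458, 42.4% and 45.6% overlapped an H3K27ac peak in the del-cIDR libraries and 30.6% and 27.9% in the WT libraries. Of the 657 WT regions, 32.3% and 35.2% did so in del-cIDR and 34.9% and 33.0% in WT. In shared regions the shares were 63.0% and 69.1%, and 53.7% and 52.4%, so the del-cIDR H3K27ac lists covered more of these regions too.

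Height was compared within shared regions. At the 15566 regions found in all 4 libraries, height was compared on the log2 scale after each library was centred on its own median, with limma and Benjamini-Hochberg adjustment over all of them, a test added after the data had been seen. In del-cIDR, 1208 regions were higher (7.76%) and 1433 lower (9.21%) at an adjusted p under 0.05. Among these, 185 were higher (1.19%) and 226 lower (1.45%) by at least 2-fold with no overlap between genotypes. Replicates differed by less than counting noise in WT (chi-square of 0.801 per region) and by about as much in del-cIDR (0.968), against 2.22 to 2.75 between genotypes. At regions with 100 or more fragments in the pair the chi-square was 0.852 in WT and 1.08 in del-cIDR, against 2.59 to 3.22 between genotypes. The fit therefore rests on a very small spread. It also pooled that spread fully over all regions, so each SE below is the value fitted at that height and not the spread of the region's own libraries. Without a trend of the spread on height, 271 and 359 regions were called, without centring 396 and 238, and with centring on the chromosomes other than 6, 8 and 12, 955 and 1725.

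**Figure D2:**
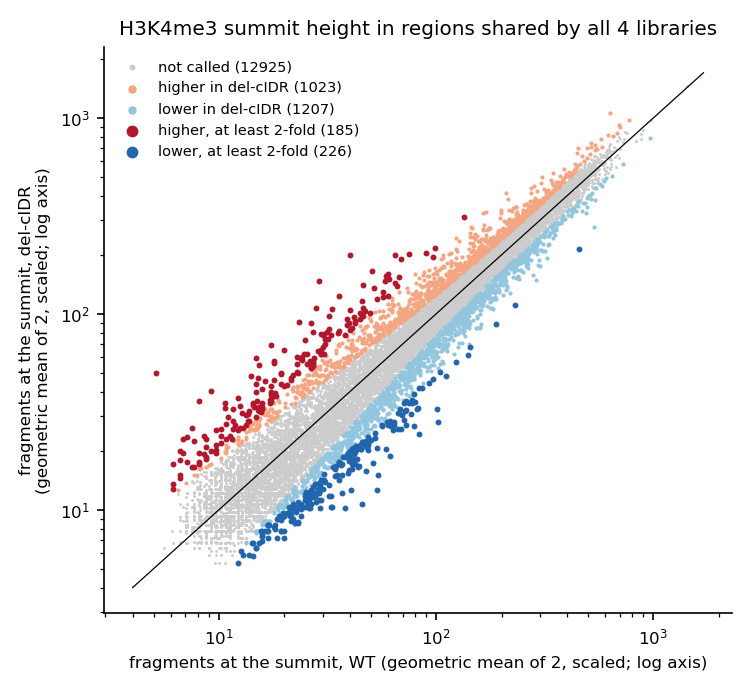
Fragments at the H3K4me3 summit in WT (horizontal, log axis) and del-cIDR (vertical, log axis), each the geometric mean of 2 libraries after scaling to equal medians, for 15566 shared regions. Most points lie along the line of equal height, and the 185 and 226 regions past 2-fold sit mainly below 100 fragments.

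Changes of 2-fold or more were found mostly at short peaks. Shared regions were put in 5 equal groups by height. In the lowest group, with 5.96 to 21.8 fragments on average, 59 regions were at least 2-fold higher and 120 lower. In the highest group, from 206 to 1441 fragments, none was 2-fold higher and 1 was 2-fold lower, while 285 and 159 were called. The median absolute difference was 0.35 in the lowest group and 0.12 in the highest, on the log2 scale. The tallest H3K4me3 peaks thus differed by small amounts on that scale. Counting noise is wider there at short peaks, and its part in these differences was not tested. Between genotypes the chi-square per region was 2.59 to 3.22 at regions with 100 or more fragments in the pair and 2.22 to 2.75 over all shared regions. For a given ratio of heights it grows with the number of fragments, so it does not show a larger difference at tall regions.

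The region with the lowest p was chr6:64639145-64641370, which held 177 and 234 fragments in del-cIDR and 42 and 37 in WT, a log2 difference of 2.31 ± 0.14 (SE). The genotypes were far apart, and the peak was 2096 and 2226 bp wide in del-cIDR but 770 and 430 bp in WT. An H3K27ac peak, of 58 fragments, was found there in del-cIDR replicate 2 alone. At chr11:31931296-31932823 the heights were 139 and 161 in del-cIDR and 26 and 31 in WT, a difference of 2.34 ± 0.16. Here width barely moved, from 1402 and 1374 bp in WT to 1465 and 1518 bp, and H3K27ac stood at 122 and 118 fragments in del-cIDR and 31 and 27 in WT, a ratio of 2.82 over background.

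At chr17:15210279-15211209 the heights were 158 and 182 in del-cIDR and 45 and 54 in WT, a log2 difference of 1.72 ± 0.14. H3K27ac was 225 and 264 in del-cIDR and 82 and 96 in WT, a ratio of 1.87 over background, and H3K9me3 peaks overlapped in del-cIDR replicate 1 and both WT libraries. The 2 marks thus differed at this region in the same direction. At chr11:72155866-72158011 the heights were 187 and 221 in del-cIDR and 64 and 63 in WT, with H3K27ac of 19 and 13 fragments in del-cIDR only. At chr9:44330517-44332291 they were 161 and 236 against 58 and 79. At chr4:98665890-98667755 they were 128 and 123 against 36 and 34. The genotypes did not overlap at any of the 10 leading regions of this direction, which their choice by p made likely, since 56.3% of all shared regions did not overlap after centring. Of the 10, 7 were also wider in both del-cIDR libraries than in both WT libraries, as were 19.5% of all shared regions.

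The largest difference of all was at chr14:118605409-118606692. It held 58 and 45 fragments in del-cIDR and 5 in each WT library, the lowest height any list contains, a log2 difference of 3.29 ± 0.30 or 9.78-fold. Its H3K27ac peaks had 38 and 37 fragments in del-cIDR and 13 in each WT library, a ratio of 1.96 over background. The region chr14:118612729-118614432, marked in del-cIDR only, lies about 6.04 kb further along the chromosome.

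Among lower regions, chr8:107329821-107331271 held 214 and 222 fragments in del-cIDR and 407 and 490 in WT, a log2 difference of -1.10 ± 0.10. It was the tallest region with a 2-fold loss. At chr7:30671932-30673598 the heights were 21 and 39 in del-cIDR and 83 and 119 in WT, a difference of -1.86 ± 0.18. The width there was 1550 and 1590 bp in del-cIDR and 1591 and 1495 bp in WT, so a peak of the same extent was 3.63-fold lower. At chr7:140918312-140920303 the heights were 11 and 15 in del-cIDR and 51 and 54 in WT, a difference of -2.09 ± 0.25, with H3K27ac of 9 fragments in del-cIDR replicate 2 and 21 in each WT library.

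At chr9:73009527-73011540 the heights were 26 and 24 in del-cIDR and 73 and 92 in WT. At chr6:30172806-30175765, a domain 2960 bp wide, they were 248 and 321 against 507 and 539. At chr5:37185590-37186971 they were 57 and 69 against 141 and 134. The same choice by p gave 10 leading lower regions with no overlap. Of these, 6 were narrower in both del-cIDR libraries (19.8% of all shared regions were), and 3 lay on chromosomes 6, 8 or 12. All 20 leading regions, chosen by the lowest p in these same values, were called in the same direction in each alternative fit that contained them; fits without 1 library assume that the lone library of a genotype varies like the other genotype's pair.

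**Figure D3:**
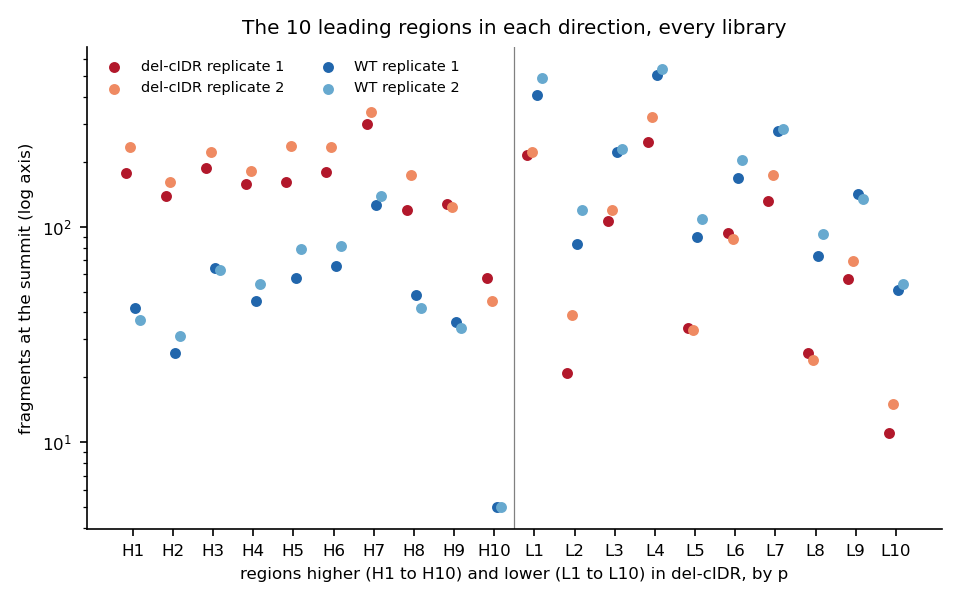
Fragments at the summit (vertical, log axis) in each of the 4 libraries at the 10 regions with the lowest p that were higher in del-cIDR (H1 to H10) and the 10 that were lower (L1 to L10). The regions were chosen by p, and at each the red del-cIDR points lie apart from the blue WT points, as they do at 56.3% of all shared regions after centring; H10, with 5 fragments in each WT library, shows the widest gap.

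Lower regions were more frequent on 3 chromosomes than on the others. The median log2 difference was -0.25 on chromosome 6, -0.23 on 8 and -0.22 on 12, with both del-cIDR libraries below both WT libraries on each. On the other 16 chromosomes the medians ran from -0.01 to 0.08. Chromosomes 6, 8 and 12 held 599 of the 1433 lower regions and 73 of the 1208 higher ones. On the 16 others, 1135 regions were higher and 834 lower, with 169 and 139 past 2-fold. With each library centred on those 16 instead, 897 of their regions were higher and 1012 lower, so which direction was more frequent there turned with the centring. Fitted without the 3 chromosomes, 799 were higher and 891 lower. Heights were not adjusted for the number of DNA copies in each line, and its part in these shifts was not tested.

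**Figure D4:**
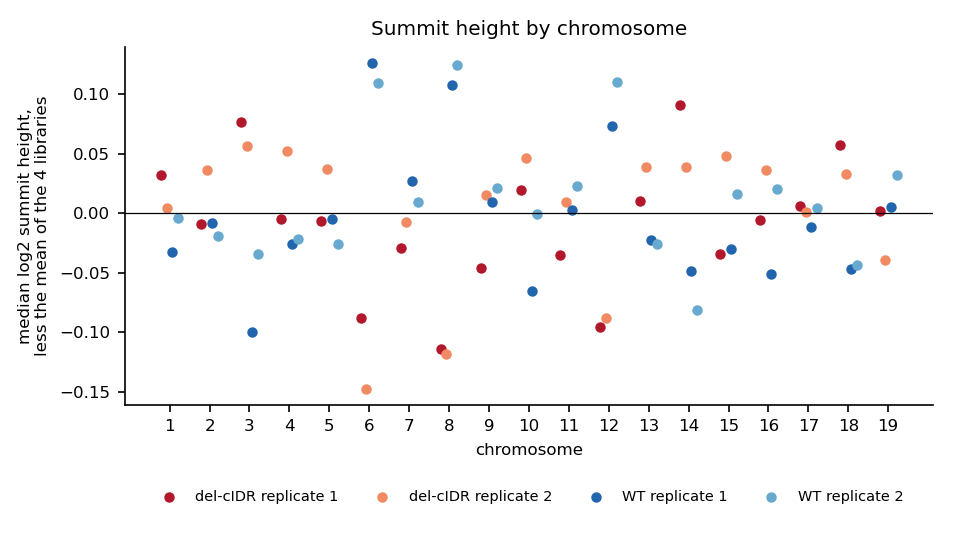
Median log2 height of shared regions on each chromosome (vertical, centred on the mean of the 4 libraries) in each library. On chromosomes 6, 8 and 12 both del-cIDR points lie well below both WT points; on 7 and 19 they also lie below, with little space between.

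H3K27ac was measured in separate libraries and was not used to choose these regions. It could be compared where a peak was present in all 4 H3K27ac libraries. Its heights were put on the log2 scale and each library was centred on its own median over these regions, so the counts are not of fragments as read. Of all such shared regions, both del-cIDR libraries were above both WT libraries at 27.6% and below them at 20.2%. Of the regions where H3K4me3 was at least 2-fold lower, 32 had H3K27ac in all 4 libraries, and at 31 of them (96.9%) it was below WT in both del-cIDR libraries, with a median log2 difference of -0.97. Of those at least 2-fold higher, 71 had it, and at 45 (63.4%) it was above in both, with a median of 0.39. Without chromosomes 6, 8 and 12 the counts were 19 of 19 and 44 of 66, and the median differences were -0.89 and 0.44. Whether the 2 marks came from the same cultures is not stated.

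H3K27ac peaks were less frequent at the regions with a large fall. Of the 226, 45.1% had no H3K27ac peak in any library and 14.2% had one in all 4. Of the 185 with a large rise these shares were 18.9% and 38.4%, and of all shared regions 22.3% and 41.8%. H3K9me3 in any library overlapped 13.3% of the 226, 8.11% of the 185 and 1.62% of all shared regions. The median height was 20.5 fragments at the 226, 31.0 at the 185 and 78.9 at all shared regions. The regions past 2-fold were thus short, and more often near H3K9me3 than the rest. The shares were not compared between regions of like height, and no test was made of them.

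Neighbouring regions moved together. After each chromosome's median was removed, the height difference of adjacent shared regions correlated with r = 0.71 when they were under 2 kb apart (225 pairs), 0.36 from 2 to 10 kb (1968 pairs), 0.20 from 10 to 100 kb (8748 pairs) and 0.09 beyond that, up to 1 Mb (4157 pairs). Adjacent regions share their libraries, so these values are a description. Where both of 2 neighbours 10 to 100 kb apart were called, they had the same direction in 284 of 323 cases (87.9%), and in 168 of 198 (84.8%) outside chromosomes 6, 8 and 12.

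Some stretches stood out when the genome was divided into windows of 1 Mb. Of 2001 windows with a shared region, 16 held at least 3 regions past 2-fold, and in 14 of these all had the same direction. On chromosome 13 from 23 to 24 Mb, 36 of 37 shared regions had a log2 difference above 0, 22 of them called higher in del-cIDR (7.76% of all shared regions were) and 6 by over 2-fold, and none was called lower. The median heights were 56 and 64 in del-cIDR and 36 and 39 in WT. After the H3K27ac libraries were centred, 10 of the 17 regions there with H3K27ac in all libraries had more in both del-cIDR libraries and none had less in both.

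On chromosome 4 from 133 to 134 Mb most regions lay on the other side. There 23 of 29 shared regions had a difference below 0, 20 of them called lower (9.21% of all shared regions were) and 6 by over 2-fold, and 1 was called higher. The median heights were 47 and 56 in del-cIDR and 90 and 95 in WT. The same stretch held 11 regions marked in WT only, the most of any window, and none marked in del-cIDR only. The tallest of these, chr4:133484035-133484658, had 101 and 117 fragments, at a fold of 1.64 and 1.66. H3K27ac, centred in the same way, was lower in both del-cIDR libraries at 12 of the 13 regions that had it in all 4. At chr4:133246024-133246980 H3K4me3 stood at 34 and 33 fragments in del-cIDR and 90 and 108 in WT, and at chr4:133310884-133312234 at 132 and 174 against 279 and 285. H3K27ac at the latter was 17 and 13 fragments as read in del-cIDR and 15 and 16 in WT, a ratio of 0.652 over background.

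On chromosome 2 from 74 to 75 Mb, 10 of 13 shared regions had a difference below 0. Of these, 7 were called lower (9.21% of all shared regions were) and 4 by over 2-fold. The median heights were 22 and 26 in del-cIDR and 38 and 41 in WT. H3K27ac was present in all 4 libraries at 2 of the 13. After centring, its median log2 difference was 0.24, opposite in sign to H3K4me3, and 1 of the 2 had more in both del-cIDR libraries. On chromosome 6 from 85 to 86 Mb all 19 shared regions had a difference below 0, 12 of them called lower. The whole of that chromosome was shifted the same way, with 27.5% of its shared regions called lower and a median log2 difference of -0.25. On chromosome 10 from 70 to 71 Mb, 4 of 8 shared regions were called higher (7.76% of all shared regions were) and none lower. The median heights were 66 and 76 in del-cIDR against 33.5 and 32.5 in WT. These windows were singled out after their values were seen, and no test was made of them.

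Width was compared within the same shared regions, and the median widths of the genotypes overlapped. The median width was 1066 and 1090 bp in the del-cIDR libraries and 1078 and 1090 bp in WT (means 1078 ± 17.0 and 1084 ± 8.49 bp, SD, n = 2 each; exact permutation test, two-sided, p = 1). With limma on log2 width, no region was called wider (0%) or narrower (0%), and the lowest adjusted p was 0.121. An unadjusted p under 0.05 was found at 1537 regions, more than the share of 0.05 that would arise with no difference. The width fit pooled the spread little (prior degrees of freedom 2.1, residual 2), where the height fit pooled it fully. The absence of calls therefore does not show that widths were equal. Widths agreed less well between replicates than heights, with r of 0.894 to 0.897 against 0.985.

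Differences in width were still more frequent between genotypes than between mixed pairs. Both del-cIDR libraries were at least 1.5-fold wider than WT without overlap at 281 regions (1.81%) and narrower at 265 (1.7%). The sum, 546, compared with 251 and 262 for the mixed splits. These were mostly short peaks, with a median of 16.9 and 14.9 fragments. Height went with width: of the 281 wider regions 111 were called higher and none lower, and of the 265 narrower ones 80 were called lower and 1 higher, where 7.76% of all shared regions were called higher and 9.21% lower. The part of height in these width differences was not tested.

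**Figure D5:**
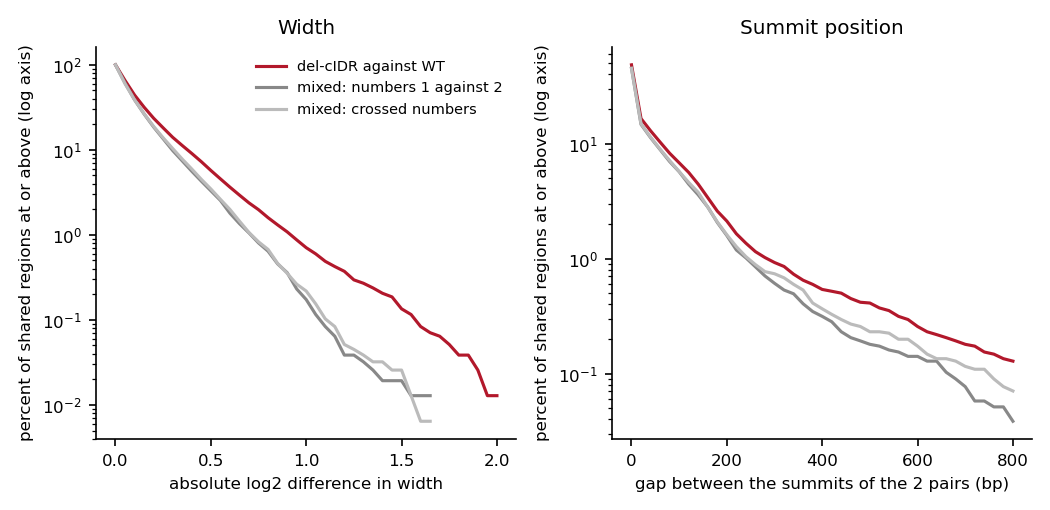
Percent of 15566 shared regions (vertical, log axis) whose pairs of libraries differ by at least the value on the horizontal axis, in log2 width (left) and in the gap between summits in bp (right), for the genotypes (red) and the 2 mixed splits (grey). The genotype curve lies above both mixed curves, with 546 against 251 and 262 regions past 1.5-fold in width and 1060 against 887 and 890 past 100 bp.

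The leading domains by p are given as values, since none passed the adjusted threshold. At chr16:32427637-32429597 the peak was 1870 and 1961 bp wide in del-cIDR and 987 and 989 bp in WT, at heights of 334 and 412 against 237 and 275. At chr1:39694383-39696366 the widths were 1893 and 1969 bp against 974 and 1010 bp, and the heights 58 and 59 against 17 and 18. At both the genotypes did not overlap (limma, adjusted p = 0.121).

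At chr6:39395127-39397587 the widths lay apart while the heights overlapped. The peak was 2382 and 2461 bp wide in del-cIDR and 1760 bp in each WT library, with 389 and 472 fragments against 410 and 453. At chr12:46864891-46866596 the 2 measures went opposite ways. The peak was 1095 and 1059 bp wide in del-cIDR and 1655 and 1706 bp in WT, while its height was 153 and 194 against 117 and 138. At chr10:62742362-62744820 the widths were 397 and 493 bp in del-cIDR and 1905 and 1832 bp in WT, with 12 and 17 against 25 fragments in each WT library. Across the 10 leading wider regions, 9 were also called higher (7.76% of all shared regions were), and across the 10 leading narrower ones 6 were also called lower (9.21% were).

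Summit position was compared last. The summit is the base with the most fragments. In any pair of libraries the summits lay within 50 bp of each other at 50.2% to 51.8% of shared regions. The median distance between summits was 46 bp within each genotype and 47 to 50 bp between genotypes. All summits of one genotype lay at least 100 bp to one side of those of the other at 1060 regions (6.81%), against 887 and 890 for the mixed splits. At 200 bp the counts were 330 against 247 and 251, and at 500 bp 64 against 28 and 36. The del-cIDR summit was at the higher coordinate in 538 of the 1060.

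Gaps between genotypes were more frequent in wide regions. Among the 1188 shared regions over 2 kb, 111 (9.34%) passed 100 bp, against 75 and 71 for the mixed splits. Among the 4309 under 1 kb, 251 (5.83%) did, against 232 and 207. Of the 1060 regions, 203 (19.2%) were called for height, against 17% of all shared regions, and their median height was 42.9 fragments.

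The largest gap was 1412 bp. At chr7:127344543-127347603, 3061 bp wide, the summit lay 387 and 380 bp from the start in del-cIDR and 1799 bp in each WT library, with 122 and 136 against 133 and 161 fragments. At chr11:76512678-76514853 it lay 1730 and 1731 bp from the start in del-cIDR and 571 bp in each WT library, with 148 and 167 against 166 and 174 fragments. At chr5:136595118-136597165 it lay at 653 and 654 bp against 1590 and 1591 bp, with 175 and 214 against 177 and 202 fragments. The replicates thus placed the summit within 7 bp of each other at these 3 regions, where the gaps were 1412, 1159 and 936 bp, and no difference in height was called. Replicates were farther apart at the 2 regions whose gaps, 1024 and 1016 bp, lie between these. At chr6:113471227-113472919 the summit lay at 158 and 160 bp in del-cIDR and 1184 and 1427 bp in WT, and at chr11:63811212-63813300 at 1541 and 1694 bp against 453 and 525 bp. At chr11:84759965-84762320, one of the taller ones with 370 and 448 against 358 and 416 fragments, the summit lay at 665 and 660 bp against 1655 and 1574 bp.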

How the data were processed

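Per the submitters' processing notes, fastp, BWA, SAMtools, Picard, MACS2 and featureCounts were used with build GRCm39; versions, settings and any control library: not given in the sources used here. The authors deposited 1 peak list per library, with a fold (a ratio over local background), −log10 p and q values, a display score (not used), and the summit position as an offset in bp. Peaks outside chromosomes 1 to 19 (5.36% to 7.36%) were left out. Fragments at a summit were solved from the deposited fold and −log10 p (relative tolerance 2e-05) after the data had been seen, and height was then tested with limma; that test and its alternatives were added. Such heights cover counting error only through the spread between libraries.

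The limma fit of width, the presence counts and the summit gaps were computed in Python 3.11.15, R 4.3.3 and limma 3.58.1. The solving of fragments, the joining of peaks and the limma fits of height and width were tested on simulated or made-up data. The presence counts and summit gaps were not. Named regions are the 10 per direction with the highest mean percentile of fold (presence) or the lowest p (width, height), and the 10 largest summit gaps among regions with 1 peak in every library. Members and lists were chosen with earlier results of these data known. The gene table at hand is of another build, so gene lists, markers and promoter sequences were not used here. Alternatives were other merging, filters, list lengths, chromosomes, scalings, a replicate block and leaving out each library.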

Additional observations from a re-analysis of the deposited data

Results flagged for a closer look

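Peaks outside chromosomes 1 to 19 were left out of the report's comparisons. Chromosome X held 669 H3K4me3 peaks on average in the del-cIDR libraries and 622.5 in WT. The mitochondrial sequence held 6 peaks in each del-cIDR library and 5 in each WT library. Neither difference was tested.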

How the results depend on the processing

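Regions found in one genotype numbered 370 and 463 (del-cIDR, WT) at a −log10 q of at least 5 and 537 and 515 with lists of equal length. Leaving out 1 library loosened the rule and gave 833 to 1345 for del-cIDR (highest without del-cIDR replicate 1) and 1050 to 1747 for WT (highest without WT replicate 1). The limma counts for height, higher and lower, were 396 and 238 without centring, which shifts the median difference by 0.06 on the log2 scale. They were 271 and 359 without the trend, and 799 and 891 without chromosomes 6, 8 and 12. Of the regions called in the main fit, 185 and 226 also had no overlap and a 2-fold difference. Leaving out each library gave 597 to 1232 higher and 661 to 1124 lower: 597 and 690 without WT replicate 1, 728 and 661 without WT replicate 2, 689 and 1124 without del-cIDR replicate 2. The 2-fold counts stayed at 135 to 248 higher and 157 to 295 lower over the alternatives, except 122 lower without centring. Width gave 1 wider and 1 narrower region at a −log10 q of at least 5, and 281 and 265 with no test but no overlap and 1.5-fold; the cause of the former was not tested. Summit shifts numbered 330 at a gap of 200 bp and 2767 to 2909 without 1 library. Deviations of libraries with the same replicate number were barely correlated (0.05 for height and -0.02 for width), which cannot show whether these libraries were handled together. With a replicate block 1577 and 1687 regions were called for height and 0 and 0 for width. Of named regions under the alternatives, 314 height and 257 width values kept their direction and call, although no width had been called in the main fit. All 40 summit values came from leaving out 1 library, which cannot narrow a gap, so that they held says nothing about the shifts. The width at chr17:45768434-45770575 turned to -0.13 with peaks within 1000 bp merged, and 114 presence values kept their call while 3 were lost, at chr14:49078888-49079706 and chr4:64786258-64786887. Depth limits presence: under 15 fragments a peak was often missing from a replicate.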

Other observations

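Chromosome X, outside the comparison, showed the widest height difference of any chromosome. At its 522 shared regions the median log2 height difference was 0.42, and 226 regions were called higher in del-cIDR and 12 lower (limma with Benjamini-Hochberg adjustment, chromosomes X and Y added). The 275 regions beyond 80 Mb had a median of 0.78 and those before it 0.09, with the boundary placed after the values were seen. The part of DNA copy number in this difference was not tested. Of H3K4me3 peaks on a sequence named dm, 359 and 772 were in the del-cIDR lists and 872 and 774 in the WT lists.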
